A study of Mus musculus with 6 samples.

Results

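Long intergenic noncoding RNAs, or lincRNAs, are transcripts from genes that lie between protein-coding genes and hold no long open reading frame. Most are spliced and polyadenylated like messenger RNAs. Some act in the nucleus, such as Malat1 and Neat1. Others are known mainly as hosts of small nucleolar RNAs or microRNAs, and many have no known function. In blood cells, lincRNAs are known for expression that is restricted to a lineage or an activation state, often beside genes of that lineage.

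The genes described here are the autosomal genes of biotype lincRNA in GENCODE M21 whose mean reached 2 CPM (counts divided by the library total, times 1000000) in at least 1 of 2 groups of sorted mouse marrow cells. H19 and Meg3 were left out. The rule kept 233 of the 4979 autosomal lincRNA genes in a table of 55401 genes. Members were thus chosen by their CPM in the same libraries that are compared here, so counts of members that differed between the groups are a description and no test of the class. Just inside the threshold lay 6720427I07Rik with an LSK mean of 2.03 CPM and C430042M11Rik with an ESC-derived mean of 2.05 CPM. Just outside lay D730045B01Rik with an LSK mean of 1.98 CPM and Gm31718 with an ESC-derived mean of 1.98 CPM.

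The study sequenced 6 libraries of 2000 sorted cells, all labelled wild type. The LSK group (n = 3) held Lin-Sca-1+c-Kit+ cells, the marrow fraction of stem and progenitor cells, of C57BL/6 mice that were 6 to 8 weeks old and untreated. In the other group, called ESC-derived (n = 3), were Lin-Sca-1+c-Kit- cells from the marrow of primary recipients that had received CD144+ cells sorted from differentiated embryonic stem cells. For the recipients, no label used here gives the strain, age or preparation, the lineage antibodies or any pooling of animals. The groups differ in the c-Kit gate as well as in their source, and these cannot be told apart. In bulk libraries, fewer cells of a type and less RNA per cell also cannot be told apart.

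Libraries held 41580006 to 49269286 counts. Apart from the rule's own values, CPM are scaled by TMM, which moved the median of all genes by 0.25 on the log2 scale relative to library totals. Kit itself was read at 2081 to 2550 counts in LSK and 2 to 6 counts in ESC-derived libraries. The 8 stem and progenitor markers all fell, from a summed 1869 to 1944 CPM in LSK to 0.428 to 7.84 CPM in ESC-derived libraries, where 1 of them was at 0. The 8 T cell markers all rose, from 87.3 to 101 CPM to 9505 to 10001 CPM. Of 8 B and plasma cell markers 5 fell, from 4532 to 5277 CPM to 16.7 to 25.4 CPM, with the LSK sum held mostly by Jchain at a mean of 4289 CPM. Of 8 myeloid markers 3 rose, with sums of 1642 to 1822 CPM in LSK and 2131 to 4099 CPM in ESC-derived libraries. Those that rose were Camp, Ngp and S100a8, and the rest were not called. Among the rest, Mpo (mean 673 to 82.4 CPM), Elane, Csf1r and Lyz2 had lower means in ESC-derived libraries and Cd14 a higher one. No defining T cell marker was at 0 in either group, and the part of these cell types in the lincRNA differences was not tested. LSK replicate 2 lay between replicates 1 and 3 for 61.4% of all tested genes and for 67.9% of lincRNAs with an LSK mean of at least 2 CPM, where the ESC-derived replicates did so for 28.0% to 34.8% of tested genes.

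The CpG content of lincRNA promoters, a feature the rule did not use, was counted, and 5 promoters of lincRNAs described here are printed. They are the RefSeq windows of 300 bases on GRCm38.p6, 250 before to 50 after the start, with each CpG in capitals. Ifngas1 (chr10:118556476-118556775, minus strand) and Gm47754 (chr13:37580815-37581114, plus strand) were read almost only in 1 group. Malat1 (chr19:5802623-5802922, minus strand) and Lockd (chr6:134928842-134929141, plus strand) were read at high levels in both groups. Snhg12 (chr4:132308428-132308727, plus strand) hosts small nucleolar RNAs.
Ifngas1: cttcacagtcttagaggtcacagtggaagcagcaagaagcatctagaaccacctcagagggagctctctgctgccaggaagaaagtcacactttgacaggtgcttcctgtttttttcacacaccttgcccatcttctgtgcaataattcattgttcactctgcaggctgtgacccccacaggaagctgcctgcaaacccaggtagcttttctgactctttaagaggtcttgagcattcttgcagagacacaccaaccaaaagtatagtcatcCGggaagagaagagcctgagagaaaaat
Gm47754: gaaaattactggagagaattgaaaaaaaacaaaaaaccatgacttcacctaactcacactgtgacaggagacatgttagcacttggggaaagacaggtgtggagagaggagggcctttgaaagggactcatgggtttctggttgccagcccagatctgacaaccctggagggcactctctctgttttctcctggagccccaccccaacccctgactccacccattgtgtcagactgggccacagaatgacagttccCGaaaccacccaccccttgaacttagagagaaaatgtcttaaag
Malat1: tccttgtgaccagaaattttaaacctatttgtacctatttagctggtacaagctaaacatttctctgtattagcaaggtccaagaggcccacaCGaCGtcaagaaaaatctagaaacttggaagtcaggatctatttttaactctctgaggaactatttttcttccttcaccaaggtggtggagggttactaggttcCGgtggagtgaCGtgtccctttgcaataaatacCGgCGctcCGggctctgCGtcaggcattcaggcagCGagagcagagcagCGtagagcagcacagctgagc
Lockd: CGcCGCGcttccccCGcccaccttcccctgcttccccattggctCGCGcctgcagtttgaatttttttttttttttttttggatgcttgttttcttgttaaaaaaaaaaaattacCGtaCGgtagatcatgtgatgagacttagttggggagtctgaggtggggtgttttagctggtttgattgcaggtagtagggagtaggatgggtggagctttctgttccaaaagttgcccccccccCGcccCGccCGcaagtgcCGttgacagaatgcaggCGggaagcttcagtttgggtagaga
Snhg12: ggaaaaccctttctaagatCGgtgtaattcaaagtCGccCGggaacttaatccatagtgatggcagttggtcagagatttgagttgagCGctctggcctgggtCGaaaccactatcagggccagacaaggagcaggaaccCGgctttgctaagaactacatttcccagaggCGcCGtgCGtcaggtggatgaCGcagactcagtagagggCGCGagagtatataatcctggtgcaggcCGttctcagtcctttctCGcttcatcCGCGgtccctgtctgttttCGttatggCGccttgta
A promoter within 1 kb of the annotated start on the same strand was found for 93 members. The median CpG count was 5 for 19 members that rose in ESC-derived cells, 10 for 20 that fell and 18.5 for 46 that did not pass the test, against 7 over all 32851 promoters. These medians are a description of the members with a RefSeq promoter only, and were not tested against each other. The printed promoters need not be typical: that of Gm47754, a member that fell, holds 1 CpG.

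Short motifs of blood cell factors were searched in the same windows on both strands. TGTGGT, the core bound by RUNX factors, was in 3 of 19 promoters of members that rose, in 4 of 20 of those that fell and in 16.8% of all promoters. AGATAA, bound by GATA factors, was in 3 of 19, 2 of 20 and 11.2%. AGGTGTGA, bound by T-box factors, and ATCAAAG, bound by TCF7 and LEF1, were in none of the 19 or 20 promoters and in 1.28% and 3.73% of all promoters. None of the 4 motifs contains another, and a match is only a match of letters.

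The lincRNAs took a larger share of the LSK libraries, and 2 genes made up most of that share in both groups. All 233 together took 2.27%, 2.30% and 2.45% of all counts in LSK replicates 1, 2 and 3, against 1.37%, 1.58% and 1.43% in the ESC-derived libraries. Malat1, a nuclear RNA found at speckles, alone took 1.97%, 2.02% and 2.19% against 0.680%, 0.883% and 0.813%. AW112010, an inducible transcript of immune cells, took 0.0245%, 0.0268% and 0.0302% against 0.419%, 0.451% and 0.360%. Without both, the other 231 took 0.272%, 0.250% and 0.227% against 0.274%, 0.248% and 0.256%, so those ranges overlapped. At least 1 count was read for 191, 205 and 198 members in the LSK libraries and for 171, 169 and 176 in the ESC-derived libraries.

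**Figure D1:**
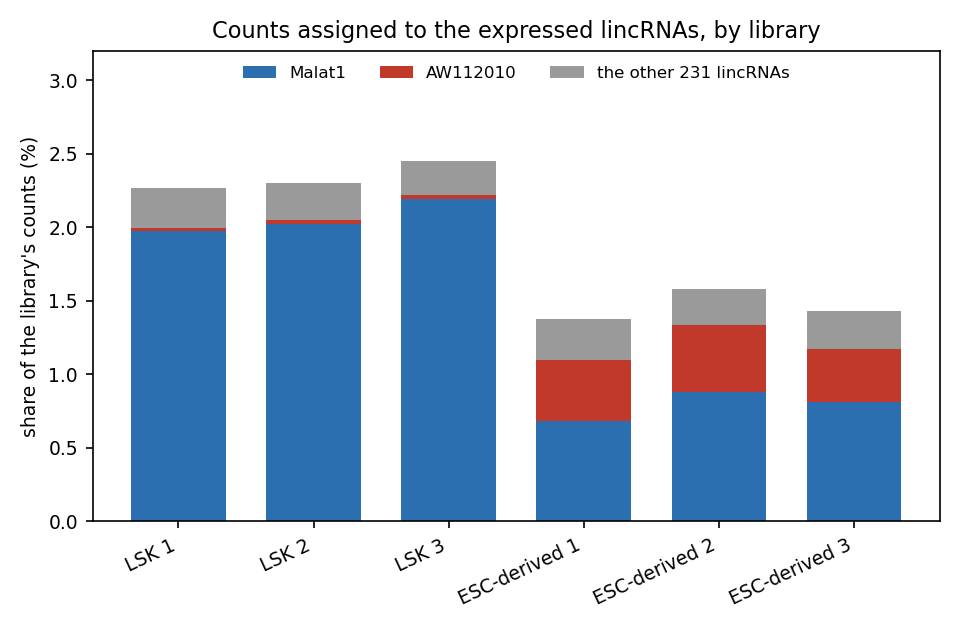
Share of each library's counts (%, vertical axis) assigned to Malat1, AW112010 and the other expressed lincRNAs in the 3 LSK and 3 ESC-derived libraries (horizontal axis). Malat1 fills most of the LSK bars, at 1.97% to 2.19%, and AW112010 is visible at 0.360% to 0.451% in the ESC-derived bars.

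Fold changes are ESC-derived minus LSK, and a gene was called where edgeR's quasi-likelihood test gave an adjusted p under 0.05 over all 16211 tested genes. Of the 233 lincRNAs, 216 passed the filter on low counts. Of these, 50 rose (23.1%, against 14.8% of all tested genes) and 48 fell (22.2%, against 15.2%). Together 45.4% were called, against 30.0% of all tested genes and 34.7% of autosomal protein-coding genes that meet the same CPM rule. The other 118 were not called. Without LSK replicate 2, 37 rose and 29 fell. The median log2 fold change was -0.34 over the 216, against -0.07 over all tested genes. Setting the 38 of them with no count in one group to their bound leaves this median by construction, since each bound lies on the same side of it. The group ranges did not overlap for 146 of 233 (62.7%, against 49.8% of all tested genes), with ESC-derived libraries above for 64 (27.5%, against 22.6%) and LSK above for 82 (35.2%, against 27.2%). Those 233 include 17 that did not pass the filter, while the shares beside them are over tested genes only. Since the labels do not say that replicates came from separate animals, p-values measure only the spread between these libraries.

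A lincRNA could enter through either group, and the group through which it entered set the direction it could take. Of 95 that passed in LSK only, 42 fell, 42 were not called and 11 were not tested. Of 61 that passed in ESC-derived cells only, 37 rose, 18 were not called and 6 were not tested. The 77 that passed in both groups are the ones whose direction the rule did not fix: 13 rose, 6 fell and 58 were not called. Beside these counts, 14.8% of all tested genes rose and 15.2% fell, together 30.0%. Most calls among the members thus came from the 95 and 61 that passed in a single group.

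**Figure D2:**
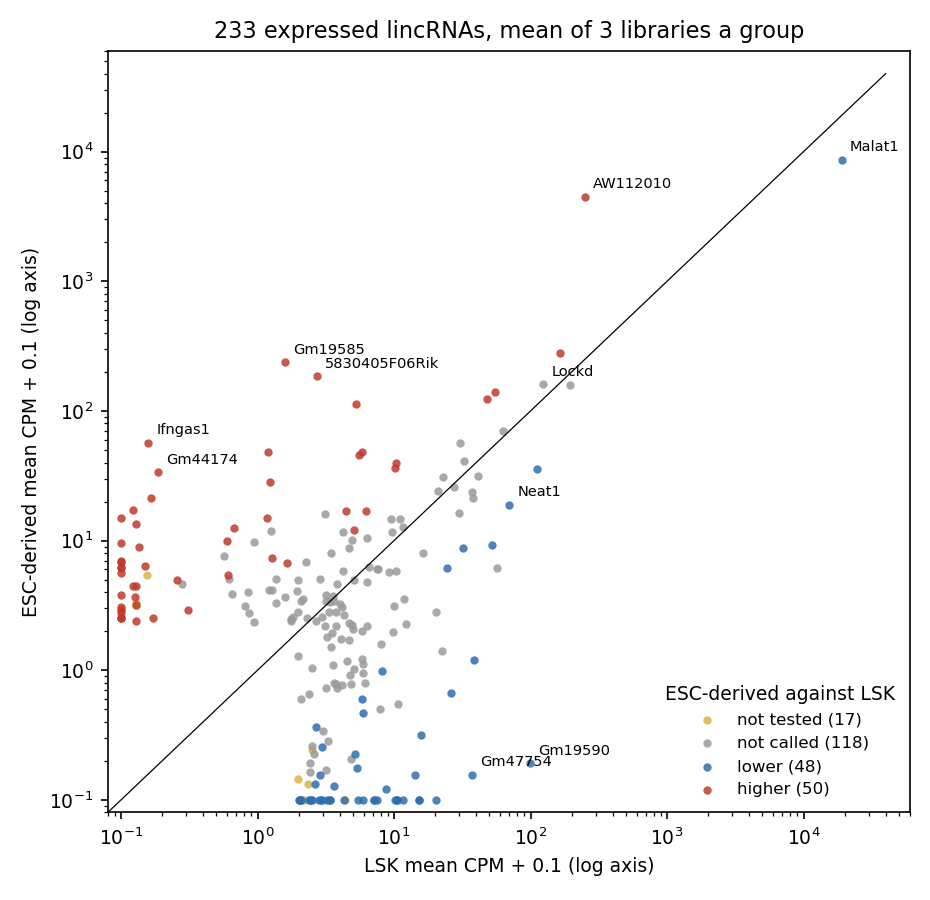
Mean CPM of 3 libraries in LSK (horizontal) and ESC-derived cells (vertical) for the 233 lincRNAs, on log axes with 0.1 added; colours give the call and the line marks equal levels. Points on the left or bottom edge had no counts in a group, 16 in LSK and 33 in ESC-derived cells.

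Many lincRNAs were read in 1 group and not at all in the other. No count was seen in any ESC-derived library for 33 members, 26 of which were read in every LSK library. None was seen in any LSK library for 16 members, 13 of which were read in every ESC-derived library. A fragment was often worth about 4 counts in this table, so 12 counts over a group (3 fragments) was taken as the floor. Among lincRNAs with a larger group mean from 2 to under 10 CPM on the rule's scale, 61 of 161 (37.9%) were at or under that floor in a group, against 353 of 2819 protein-coding genes (12.5%). From 10 to under 50 CPM it was 14 of 54 (25.9%) against 80 of 4659 (1.72%). At 50 CPM or more it was 1 of 18 (5.56%), Ifngas1, against 17 of 3626 (0.469%). These shares were not tested against each other.

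**Figure D3:**
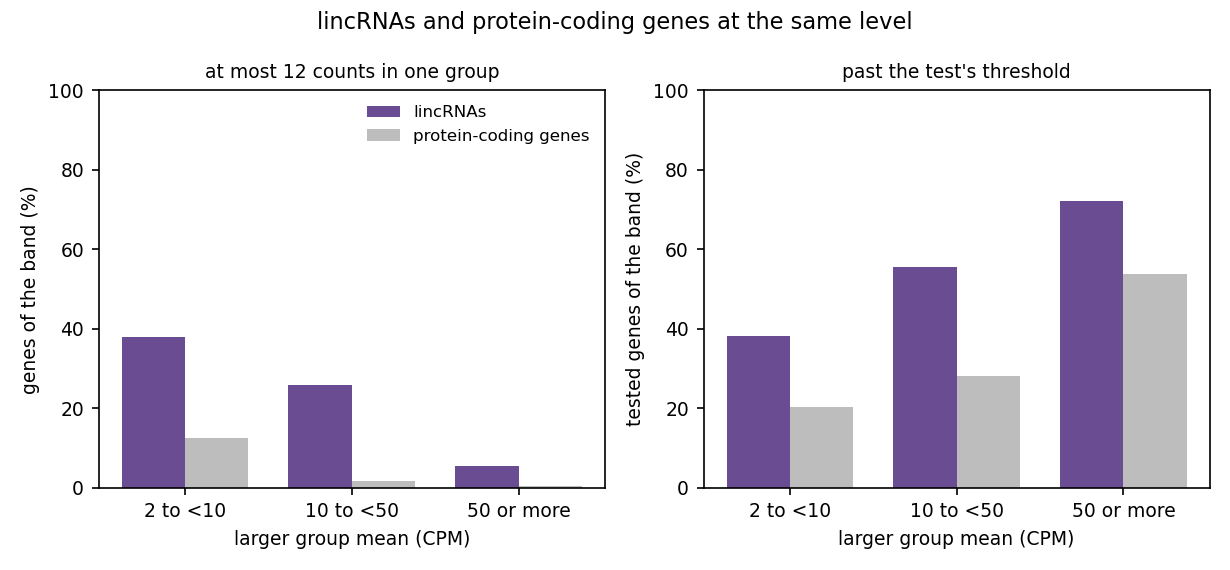
Left, percent of lincRNAs and of autosomal protein-coding genes with at most 12 counts over the 3 libraries of a group, by band of the larger group mean (CPM from library totals, horizontal axis). Right, percent of tested genes called; the lincRNA bars read 38.2%, 55.6% and 72.2% and the coding bars 20.3%, 28.3% and 53.9%.

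Among the nuclear-retained RNAs, both members fell. Malat1 (chr19:5795690-5802672, minus strand) was read at 17380.3, 18408 and 21228 CPM in LSK and 7491, 10001 and 8457 CPM in ESC-derived libraries. Neat1 (chr19:5824708-5845478, minus strand), the scaffold of paraspeckles, was read at 84.9, 60.7 and 63.2 CPM and at 17.3, 22.9 and 16.4 CPM. Every LSK library lay above every ESC-derived library for both neighbouring genes. The log2 fold change was -1.14 ± 0.14 (SE, adjusted p = 0.00151) for Malat1 and -1.88 ± 0.22 (adjusted p = 0.00139) for Neat1. Kcnq1ot1, a nuclear antisense RNA of another biotype and so no member, fell as well. Per kb of exon, Malat1 was the most abundant lincRNA in LSK at 2722 CPM per kb, while AW112010 led in ESC-derived cells at 5583 CPM per kb.

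Of the lincRNAs known from innate immune cells, 2 of 3 members rose. AW112010 (chr19:11047612-11055808, minus strand) went from 216, 244 and 292 CPM in LSK to 4609.9, 5114 and 3741 CPM in ESC-derived libraries. Its log2 fold change was 4.16 ± 0.18 (adjusted p = 2.25e-05), and none of its 50-base words occurs in another gene's transcripts. Gm14005 (chr2:128178319-128502765, minus strand), also known as Morrbid and known for restraining the pro-apoptotic gene Bcl2l11 in short-lived myeloid cells, went from 10.7, 10.7 and 9.36 CPM to 39.8, 44.6 and 34.1 CPM. Its log2 fold change was 1.95 ± 0.21 (adjusted p = 9.07e-04), with no overlap between the groups. Mirt1 was read at 40.8, 34.1 and 23.2 CPM and at 62.7, 23.7 and 35.5 CPM, overlapping ranges with a log2 fold change of 0.31 ± 0.39 (adjusted p = 0.607). Mirt1 shares sequence with 4833407H14Rik on the other strand, and this library kit does not record strand.

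Ifngas1 was the one lymphocyte lincRNA that was a member, and it rose beside the gene it is named for. Ifngas1 (chr10:118502035-118556525, minus strand), also called NeST, is known for promoting interferon gamma expression in T and NK cells. It was read at 0, 0 and 0.174 CPM in LSK and at 72.8, 43.3 and 54.4 CPM in ESC-derived libraries. Those are 8 counts against 7468 counts, a ratio of 993 (95% counting interval 274 to 8204; edgeR adjusted p = 6.70e-04). Ifng, 56142 bases away, went from 2.76, 3.31 and 4.57 CPM to 663, 514 and 536 CPM (log2 fold change 7.33 ± 0.26, adjusted p = 1.08e-05). Both were high in every ESC-derived library, where the T cell marker sum was 9505 CPM or more.

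The lincRNAs with the largest rises were led by genes with almost no reads in LSK. 4930549P19Rik had 0 counts in every LSK library and 19, 12.4 and 13.3 CPM in ESC-derived libraries, at least 173-fold higher (adjusted p = 6.38e-04). Gm28935, whose nearest coding gene is Ms4a4a (mean 1.09 to 3.71 CPM, not called), was at 0, 0 and 0.0653 CPM against 15.1, 18.9 and 17.2 CPM. Gm4208, beside Nrp2 (mean 2.84 to 0.573 CPM, not called), was at 0, 0 and 0.0871 CPM against 11.2, 9.99 and 18.7 CPM. In each of these the LSK libraries held at most 4 counts, and the counting ratios were 797 (107 to 23651) for Gm28935 and 472 (84.3 to 18694) for Gm4208. Gm19585 (chr17:51986415-52163976, plus strand) was the most abundant of the group, with 1.05, 1.2 and 2.22 CPM in LSK and 207, 271 and 234 CPM in ESC-derived libraries. Its log2 fold change was 7.31 ± 0.36 (adjusted p = 3.40e-05). Gm2682 went from 1.40, 1.44 and 0.435 CPM to 61.9, 49.8 and 33.0 CPM (log2 fold change 5.46 ± 0.56, adjusted p = 7.27e-04). No function is known with certainty for these genes.

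1 of the strong rises lies inside a T cell receptor locus. 5830405F06Rik (chr6:41055883-41063102, plus strand) overlaps the variable segment Trbv4, and 21.5% of its 50-base words also occur in other genes, most in Trbv4. It went from 2.74, 2.32 and 2.83 CPM to 209, 185 and 163 CPM (log2 fold change 6.14 ± 0.19, adjusted p = 5.82e-06). Reads of the receptor segment and of the lincRNA cannot be told apart there. Gm19331, chosen here after its values were seen because it overlaps the immunoglobulin segment Ighv1-62-1, was at 3.90, 2.12 and 3.81 CPM in LSK and 0 in all ESC-derived libraries, at least 36.1-fold lower (adjusted p = 0.00531). Gm30211, chosen in the same way for its overlap with Igkj1, had 11.5, 10.4 and 9.88 CPM against 0, 1.28 and 0.0634 CPM, and was not called (adjusted p = 0.0681). The B and plasma cell marker sum moved the same way, from 4532 to 5277 CPM to 16.7 to 25.4 CPM, and its part in these values was not tested.

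Beside Cd8a, which encodes a chain of the T cell co-receptor CD8, both neighbouring lincRNAs rose. Gm44174 (chr6:71353035-71373284, plus strand) ends 142 bases before Cd8a on the same strand, and has a single annotated transcript of 141 bases in GENCODE M21, shown in full because so short a model lies so close to Cd8a.
Gm44174: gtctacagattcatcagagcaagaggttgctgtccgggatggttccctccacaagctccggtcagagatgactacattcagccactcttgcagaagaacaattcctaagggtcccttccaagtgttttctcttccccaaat
None of its 50-base words occurs in another gene's transcripts. It was read at 0, 0.0876 and 0.174 CPM in LSK and 40.1, 28.2 and 32.3 CPM in ESC-derived libraries, a ratio of 391 (134 to 1901; adjusted p = 6.85e-04). Gm44175, on the opposite strand inside the Gm44174 interval and named after its values were seen, was at 0 in LSK and at 5.19, 6.23 and 6.91 CPM, at least 71.7-fold higher (adjusted p = 0.00212). Cd8a went from 2.14, 2.32 and 3.09 CPM to 1276, 1126 and 1129 CPM (log2 fold change 8.87 ± 0.21, adjusted p = 3.17e-06). Transcript beyond the annotated ends of Cd8a and separate lincRNA transcripts cannot be told apart from gene counts.

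A group of 3 lincRNAs has Id2 as its nearest protein-coding gene, and all of them rose with it; Gm47705 and Gm36287 were added after their values were seen. Id2 encodes an inhibitor of E proteins that is needed for NK and effector T cells. Gm36723, 206799 bases away, was at 0, 0 and 0.196 CPM against 24.5, 18.9 and 20.2 CPM (ratio 329, interval 84.1 to 1199, adjusted p = 0.00367). Those 2 had no LSK counts and ESC-derived means of 5.54 ± 0.30 and 2.68 ± 0.52 CPM (SD, n = 3), at least 64.8-fold and 31.0-fold higher (adjusted p = 0.00232 and 0.00558). Id2 went from 94.2, 93.3 and 98.1 CPM to 4181, 4397 and 3701 CPM (log2 fold change 5.43 ± 0.12, adjusted p = 3.17e-06). The pairs share this 1 neighbour and are not independent of each other.

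Among lincRNAs of growth control and the damage response, 1 of 5 members fell and none rose. Trp53cor1 (chr17:29057430-29079179, minus strand), known as lincRNA-p21 and as a p53 target, was read at 9.51, 12.3 and 9.38 CPM in LSK and not at all in ESC-derived libraries. That is at least 114-fold lower (adjusted p = 9.82e-04), although 38.4% of its 50-base words also occur in the transcripts of other genes, most in AC167363.1. Cdkn1a, the cell cycle inhibitor p21 and its divergent neighbour at 11796 bases, fell from 425, 412 and 397 CPM to 45.4, 33.7 and 42.8 CPM (log2 fold change -3.34 ± 0.15, adjusted p = 2.27e-05). Lockd, which lies downstream of Cdkn1b, was at 130.0, 121 and 121 CPM and at 129.9, 229 and 125 CPM (log2 fold change 0.38 ± 0.24, adjusted p = 0.305). Cdkn1b itself was not called (log2 fold change -0.46 ± 0.40, adjusted p = 0.449). 2900097C17Rik, the mouse counterpart of NORAD, was at 42.6, 37.8 and 32.0 CPM against 13.5, 17.3 and 33.1 CPM, overlapping by 1 library (log2 fold change -0.82 ± 0.36, adjusted p = 0.139). Of its 50-base words, 39.5% also occur in the transcripts of Gm7292, another member. Lncpint had 10.1, 8.36 and 9.99 CPM against 16.1, 7.75 and 19.6 CPM (adjusted p = 0.307). Pvt1, the neighbour of Myc, had 0.660, 1.64 and 1.5 CPM against 8.18, 2.17 and 4.56 CPM. Its groups did not overlap, but the log2 fold change of 1.97 ± 0.74 was not called (adjusted p = 0.0918). Myc itself fell, from a mean of 155 to 104 CPM (log2 fold change -0.58 ± 0.17, edgeR adjusted p = 0.0463).

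Of the 19 small nucleolar RNA hosts listed, 4 were members and 1 of them fell. Epb41l4aos was at 28.1, 32.1 and 36.0 CPM in LSK and 8.82, 13.6 and 3.36 CPM in ESC-derived libraries (log2 fold change -1.90 ± 0.49, adjusted p = 0.0271). The call was lost without any 1 of LSK replicates 1, 2 or 3 or ESC-derived replicate 1, with adjusted p of 0.0589, 0.0780, 0.0754 and 0.0718. Its convergent neighbour Epb41l4a went the other way, from a mean of 0.284 to 8.89 CPM (adjusted p = 0.0286), a call lost without LSK replicate 2 or 3 or ESC-derived replicate 1 or 2 (adjusted p of 0.0630 to 0.0941). Snhg12 was at 10.5, 10.9 and 13.9 CPM against 0.785, 5.08 and 4.52 CPM, with no overlap, and was not called (log2 fold change -1.77 ± 0.69, adjusted p = 0.101). Snhg6 (log2 fold change 0.43 ± 0.29, adjusted p = 0.319) and Snhg20 (-0.08 ± 0.52, adjusted p = 0.926) were not called either. Snhg10, a member that the list does not hold and that was added after its values were seen, was at 0.887, 2.67 and 5.68 CPM against 0.999, 6.52 and 3.65 CPM and was not called (adjusted p = 0.860). Of the listed hosts of other biotypes, Gas5 fell, and those tested besides it were not called.

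None of the microRNA hosts among the members passed the test. Of the listed hosts of other biotypes, Mir99ahg fell, from a mean of 15.4 to 0.13 CPM from library totals. Those tested besides it were not called. Mir17hg encodes the miR-17 to miR-92 cluster, whose members fall into seed families; 4 are shown with bases 2 to 8 in capitals, as RefSeq gives them, because the first pair and the second pair each share a seed.
mmu-miR-17-5p: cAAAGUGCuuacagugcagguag
mmu-miR-20a-5p: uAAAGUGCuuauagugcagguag
mmu-miR-19a-3p: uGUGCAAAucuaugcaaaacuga
mmu-miR-19b-3p: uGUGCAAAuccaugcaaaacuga
The host was read at 8.04, 0.0438 and 5.62 CPM in LSK and 0.571, 4.25 and 0 CPM in ESC-derived libraries (adjusted p = 0.630). Mir142hg, host of the blood cell microRNA miR-142, was at 0, 4.49 and 4.88 CPM against 0, 5.10 and 0 CPM (adjusted p = 0.832). Libraries of 1 group thus went from 0 to several CPM for both hosts. 4833445I07Rik, which holds Mir191 and Mir425, was at 17.3, 13.7 and 5.40 CPM against 0.0951, 3.26 and 3.19 CPM and was not called (adjusted p = 0.148). E130102H24Rik, which holds Mir101a, was at 10.6, 6.87 and 0 CPM against 0, 0.354 and 2.72 CPM (adjusted p = 0.455). These are host transcripts; a kit that primes on poly(A) does not measure the mature microRNAs.

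The largest falls were lincRNAs with clear LSK levels and none or almost none in ESC-derived libraries. Gm19590 (chr5:75833035-75835645, minus strand), whose nearest coding gene is Kdr, was the most abundant, with 107, 104 and 83.8 CPM in LSK and 0, 0 and 0.275 CPM in ESC-derived libraries (log2 fold change -9.95 ± 0.95, adjusted p = 5.57e-04). Its 13 ESC-derived counts all came from replicate 3, and the counting ratio was 997 (316 to 2975). Without that library, where no ESC-derived count was left, it was at least 692-fold lower (adjusted p = 1.91e-04). Gm47754 (chr13:37581077-37589313, plus strand) was at 33.4, 35.2 and 43.0 CPM against 0, 0 and 0.169 CPM, a ratio of 612 (169 to 5056; adjusted p = 0.00107). The other 6 large falls had no ESC-derived count at all. 5033406O09Rik was at 14, 20.4 and 26.1 CPM in LSK (at least 220.0-fold lower), Gm10384 at 17.4, 15.7 and 12.4 CPM (at least 167-fold) and AC091309.4 at 12.6, 14.9 and 18.1 CPM (at least 166-fold). 4930519L02Rik, 2310040G24Rik and Gm20467 had LSK means of 11.6 ± 2.29, 10.5 ± 1.11 and 10.1 ± 4.30 CPM (SD, n = 3) and were at least 127-fold, 115-fold and 109.8-fold lower. All 8 were read in each LSK library. The 8 stem and progenitor markers fell in the same libraries, and their part in these falls was not tested.

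**Figure D4:**
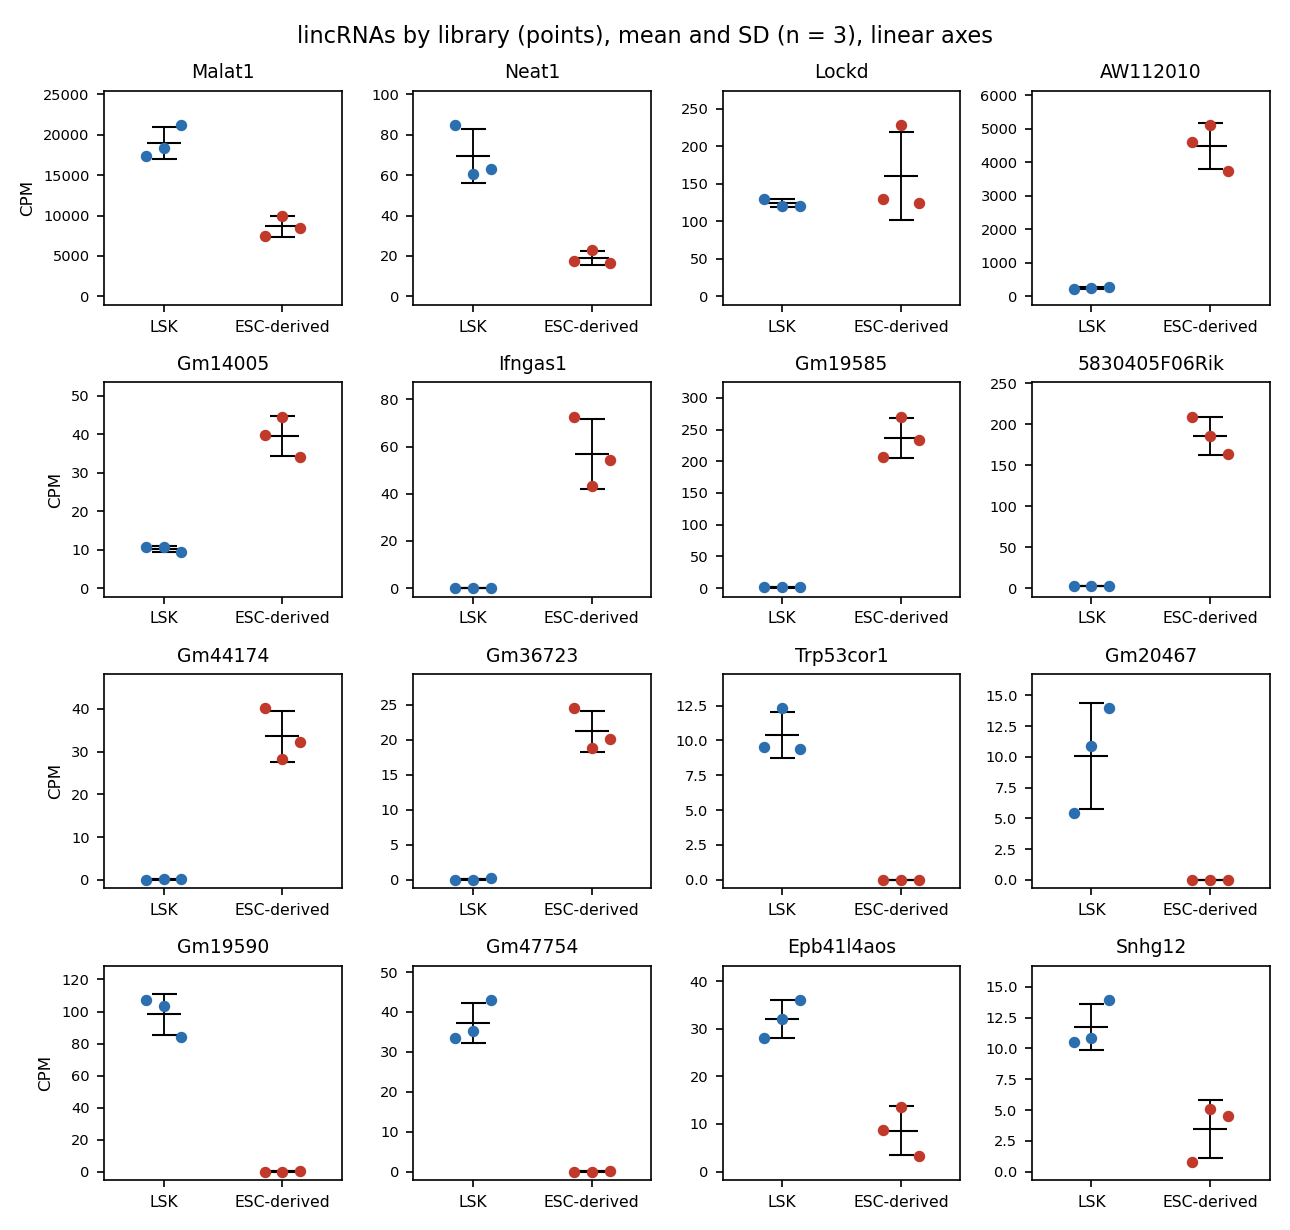
CPM (vertical axes, linear, each panel to its own scale) of 16 lincRNAs in the 3 LSK and 3 ESC-derived libraries; points are libraries, bars the mean and SD. Lockd overlaps between the groups, and the 3 ESC-derived points of Trp53cor1 and Gm20467 lie at 0.

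Some abundant lincRNAs changed little or were not called. 1810058I24Rik rose from 157, 155 and 179 CPM to 282, 280.3 and 274 CPM, the smallest fold among the 50 that rose (log2 fold change 0.77 ± 0.10, adjusted p = 0.00219). Gm10076 was at 162, 194 and 229.9 CPM against 235, 129 and 109.6 CPM (log2 fold change -0.31 ± 0.30, adjusted p = 0.504). It shares 69.9% of its 50-base words with other genes, most with the ribosomal protein gene Rpl41, so reads of these genes cannot be told apart. Over all members, 117 shared no 50-base word with another gene and 37 shared over 20%.

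Each lincRNA was set beside the protein-coding gene with the nearest start, at whatever distance. The distance between starts had a median of 25269 bases, was within 1 kb for 43 members and beyond 50 kb for 75. The neighbour was on the same strand for 98 members and divergent for 89. A coding gene overlapped 7 members on the same strand and 27 on the opposite strand, and 200 members overlapped none. Members with an overlap stay in the counts of calls above, and the kit does not record strand. Of members that overlap no coding gene, 149 formed a pair in which both genes were tested, and in 34 pairs both were called. The direction was the same in 26 of these 34 (76.5%), which have 23 distinct neighbours, with 17 pairs higher and 9 lower. Without LSK replicate 2 it was 14 of 16. Protein-coding genes that met the same CPM rule, paired with the nearest other coding gene, had the same direction in 551 of 889 pairs (62.0%). Those coding genes were not matched in distance to the neighbour. Nor were they matched in level: 3626 of 11104 had a larger group mean of 50 CPM or more, against 18 of 233 lincRNAs. Coding genes were left out only where they overlapped that neighbour, and mutual neighbours count as a pair from each side. Pearson's r between log2 fold changes was 0.44 over the 149 lincRNA pairs and 0.17 over 6974 coding pairs, with Spearman's rho of 0.46 and 0.16. These correlations are across genes that share the same 6 libraries, and the difference between the classes was not tested.

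**Figure D5:**
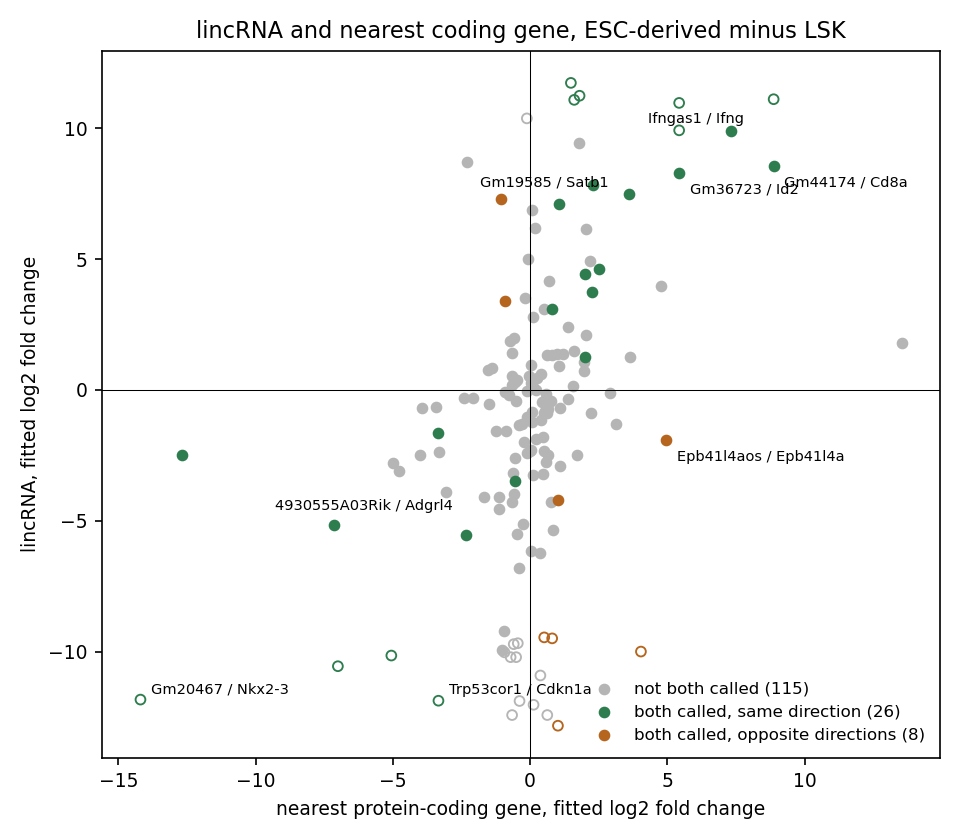
Fitted log2 fold change of the lincRNA (vertical) against that of its nearest protein-coding gene (horizontal) in 149 pairs without overlap. Open symbols have a lincRNA with no count in a group, whose fitted value depends on the prior count; the 26 pairs called in the same direction lie in the upper right and lower left.

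Some concordant neighbours are known blood cell genes, and the pairs beside Maml3 and Ets1 were picked after their values were seen. Gm20467 lies 1699 bases from Nkx2-3 on the opposite strand, a homeobox gene read at 44.7, 51.1 and 59.0 CPM in LSK and, like Gm20467, at 0 in all ESC-derived libraries. Gm30074 fell with Maml3, a co-activator of Notch signalling (log2 fold change of Maml3 -7.00), and had no count in ESC-derived libraries (at least 46.4-fold lower, adjusted p = 0.00754). Foxo1, the coding gene on the other side of Gm30074, rose from a mean of 14.9 to 58.2 CPM (log2 fold change 1.96, edgeR adjusted p = 0.00348). Gm27162 rose with Ets1, a lymphoid transcription factor (log2 fold change of Ets1 3.59), from 0, 0.0657 and 0 CPM to 3.31, 4.98 and 4.75 CPM (ratio 204, interval 27.1 to 6091, adjusted p = 0.00923). The 8 pairs that went in opposite directions included Gm19585, which rose while Satb1, a chromatin organiser of T cells 153124 bases away, fell from 69.4, 70.5 and 71.5 CPM to 32.4, 36.3 and 32.7 CPM (log2 fold change -1.06 ± 0.14, adjusted p = 0.00198).

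Members also lay near each other, and 12 groups of members within 50 kb held 25 of them. Malat1 with Neat1, and Gm44174 with Gm44175, were groups in which both genes moved the same way. Mirt1 and 4833407H14Rik, on opposite strands, did not: the second fell (log2 fold change -3.50) and Mirt1 was not called. That fall was lost without any 1 of LSK replicates 1, 2 or 3 or ESC-derived replicates 1 or 3 (adjusted p of 0.0611 to 0.147). With no low-count filter it was lost as well (edgeR adjusted p = 0.0597). Of the 50-base words of 4833407H14Rik, 66.6% also occur in Mirt1, so reads of the shared part cannot be told apart. The rule's CPM are not divided by exon length, so length bears on which lincRNAs became members. In structure, members had a median exon length of 1811 bases against 942 for the other autosomal lincRNAs, and 29 (12.4%) had a single exon against 5.90%. Of these 29, 2 rose, 3 fell and 22 were not called, so 18.5% of the 27 tested were called, against 45.4% of all tested members; this difference was not tested.

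The lincRNAs were less even between replicates than coding genes, also within bands of level, and the differences were not tested. With a group mean of at least 2 CPM, the median coefficient of variation in LSK was 30.5% for lincRNAs and 16.3% for coding genes, and in ESC-derived cells 47.2% and 25.7%. From 2 to 10 CPM the medians were 44.5% against 30.9% in LSK and 61.5% against 52.9% in ESC-derived cells. At 10 CPM or more the medians were 16.8% against 13.0% in LSK and 23.6% against 20.5% in ESC-derived cells. This upper band has no top, and level is not matched within it. By larger group mean, 3626 coding genes lay at 50 CPM or more and 4659 from 10 to under 50 CPM, against 18 and 54 lincRNAs. A single library held over 80% of the group's CPM for 4 of 159 lincRNAs in LSK and 10 of 142 in ESC-derived cells. A930038B10Rik, singled out after its values were seen, was at 0, 0 and 7.16 CPM in LSK, and A530010L16Rik at 0, 0 and 9.65 CPM in ESC-derived libraries; neither was tested.

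None of the 8 lncRNAs of pluripotency and development on the list was a member. Lncenc1, Platr3 and Platr4, which mark embryonic stem cells, had no count in either group, and Platr10 had a mean of 0.0486 CPM from library totals in ESC-derived libraries and 0 in LSK. Platr7 was at 0.235 CPM on that scale in LSK and 0 in ESC-derived libraries. The list of 3 genes that overlap ribosomal RNA was not analysed here, since none of them has a row in the table.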

How the data were processed

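The 6 libraries were made with SMART-Seq v4 and Nextera XT, per the labels' protocols; as background, the former primes cDNA on poly(A) and does not mark strand. The values are the authors' deposited counts per Ensembl gene. HISAT, StringTie and build mm10 are named in the submitters' processing notes, without versions. The table's header names the 6 libraries in 1 field, and columns were assigned in that order. Values are whole numbers in which a fragment is often worth 4 counts: 40.1% to 47.2% of values from 1 to 20 were divisible by 4.

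Biotypes and positions came from GENCODE M21 (GRCm38), which matched 55141 of 55401 gene IDs. The 260 unmatched IDs stayed in the library totals and tests. Counts were tested with edgeR 4.0.16 in R 4.3.3 (filterByExpr, TMM, robust quasi-likelihood F test, group only, two-sided) over all 16211 genes passing the filter, with Benjamini-Hochberg adjustment at 0.05, after a check on simulated data. DESeq2 1.42.0 and limma 3.58.1 were alternatives, beside other scalings and filters, values divided by 4, thinning, a replicate block and each library left out. Ratios against 1 to 12 counts have exact 95% binomial intervals on counts divided by 4, and folds against 0 use 12 counts over the group; both cover counting error only. Reads carry no molecular identifiers. Totals of 41580006 to 49269286 counts make 12 counts over a group less than 0.1 CPM. Exon 50-base words were compared over all GENCODE transcripts on both strands. Promoters (114 members by symbol) and microRNAs were matched in RefSeq tables of GRCm38.p6.

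Named members were those on 8 gene lists, the 8 largest rises and falls outside them with at least 10 CPM in the higher group, the 5 most abundant in each group, those next to the threshold, microRNA and small nucleolar RNA hosts, and their nearest coding genes. The members and lists were chosen with earlier results of these data known.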

Additional observations from a re-analysis of the deposited data

How the results depend on the processing

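The 50 rising and 48 falling lincRNAs were recomputed under 17 alternatives. Another test, scaling or filter gave 43 to 62 rising and 43 to 67 falling lincRNAs. Leaving out 1 library at a time gave 37 to 46 rising and 29 to 53 falling lincRNAs, 1466 to 2163 rising and 1250 to 2440 falling genes of all tested, and 14 to 25 pairs of lincRNA and nearest coding gene that went the same way; the lowest of each came without LSK replicate 2, with 29 falling lincRNAs, and the cause was not tested. Of the calls above, 34 rises and 29 falls were still made without that library. Replicate numbers did not pair the samples: same-numbered libraries deviated together by correlations of 0.0043, 0.054 and 0.0063. With the replicate number as a block, 34 lincRNAs rose and 25 fell, 1488 of all genes fell, and 17 pairs went the same way; the block leaves fewer residual degrees of freedom. The pair counts were added after seeing the data. Under the block Epb41l4aos (0.0542, with 4.54e-04 to 0.0780 over its alternatives), Gm36287 (0.0633), Gm19331 (0.0578), 4833407H14Rik (0.0615) and the coding gene Epb41l4a (0.0824) had adjusted p above 0.05. A threshold of 1 CPM would give 358 members and one of 5 CPM 121. Uncalled log2 fold changes turned sign as single libraries were left out for Snhg20 (-0.64 to 0.51; 0.15 and 0.11 without ESC-derived replicates 1 and 2), Mirt1 (-0.14 to 0.59) and C430042M11Rik (-0.65 to 3.50). Leaving out a library added calls for 2900097C17Rik (adjusted p = 0.0152, without ESC-derived replicate 3), Gm30211 (0.0059, without 2), and Gm10076 and Snhg12 (0.0437 and 0.0445, without 1). DESeq2 called Pvt1, Snhg12, 4833445I07Rik and Gm30211, limma-voom called Snhg12 and Gm30211, and values divided by 4 gave a call for Gm30211 (adjusted p of 0.0018, 0.0077 and 0.0197 for Gm30211 in that order, over a range up to 0.151). For the members named by rule, 643 results under the alternatives kept direction and side of the threshold. Besides these, 7 gained a call, 5 lost one and 5 turned sign. Members added after their values were seen are not in these counts.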
